A study of Mus musculus with 6 samples.

Results

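The genes described here encode the enzymes, regulators and transporters by which a cell makes and handles cholesterol and fatty acids. They were measured in libraries labelled as MC/9, a mouse mast cell line. All 34 genes named for this set were found by symbol among the 49568 genes of the deposited count table, and all 34 passed the filter on low counts that left 16696 genes to test. The samples are 3 control and 3 rPTH libraries. The series' text has mast cells placed on osteoblasts of the mouse line 7F2 a day after these were seeded, treatment with rPTH at a final 10 nM for 24 h, and then collection of the mast cells for RNA. The control libraries are labelled as treated with none, and whether control mast cells also grew with osteoblasts is not stated in the labels. Nor is rPTH spelled out. Both groups come from 1 cell line, and nothing says that replicates were separate cultures, so the tests measure the spread between these libraries, which may be technical.

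Cholesterol is built from acetyl-CoA through mevalonate and isoprenoid units to squalene, which is then closed into a ring and trimmed. Fatty acids are built from the same acetyl-CoA, after citrate leaves the mitochondrion, and are then lengthened and desaturated. When the membrane sterol level is low, the membrane-bound SREBP factors are carried from the endoplasmic reticulum to the Golgi, cut, and switch on most genes of both pathways, while INSIG proteins hold them back. Oxysterols work through the LXR receptors, which switch on sterol exporters. In mast cells, membrane cholesterol is needed for signalling from the IgE receptor, and arachidonic acid, a product of the desaturases and elongases, is the source of prostaglandins and leukotrienes.

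The set was split by role into 8 genes that lead from acetyl-CoA to isoprenoids, 11 that lead from squalene to cholesterol, 6 sterol regulators and transporters, and 9 genes of fatty acid synthesis and desaturation. RefSeq promoter windows of 300 bases (250 before the start and 50 after it, build GRCm38.p6) were matched by symbol for 26 of the 34. The windows were searched on both strands for a sterol response element of the letters TCACNCCAC, a CCAAT box (CCAAT, the motif of the factor NF-Y), a GC box (GGGCGG, the motif of Sp1) and an E-box (CACGTG). None of the 4 motifs contains another. A CCAAT box was found in 21 of 26 genes (80.8%), against 41.1% of the 27025 genes with a window, and a GC box in 20 of 26 (76.9%), against 38.2%. All 9 genes of the steps after squalene with a window held both. The E-box was in 6 of 26 (23.1%, against 8.09%) and the sterol response element in 1 of 26 (3.85%, against 1.44%). These are letter matches and not measured sites. The 27025 genes were not limited to genes expressed here, while all 26 had passed the filter on low counts. Shares among the tested genes were not counted.

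The 150 bases before the start are shown for Hmgcs1, the gene with the sterol response element, for Mvk and Mvd, whose rPTH libraries all lay under the controls, and for Abca1, which had the largest difference between groups. Capitals mark the matched motifs (ATTGG and CCGCCC are CCAAT and GGGCGG read on the other strand).
Hmgcs1 (chr13:119690201-119690350, plus strand): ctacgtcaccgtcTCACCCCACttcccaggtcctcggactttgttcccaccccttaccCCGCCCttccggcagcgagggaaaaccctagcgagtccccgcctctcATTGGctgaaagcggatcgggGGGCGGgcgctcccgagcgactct
Mvk (chr5:114444119-114444268, plus strand): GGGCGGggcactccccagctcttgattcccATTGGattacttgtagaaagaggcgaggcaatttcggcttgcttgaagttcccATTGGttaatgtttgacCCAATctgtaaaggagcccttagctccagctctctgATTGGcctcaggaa
Mvd (chr8:122443423-122443572, minus strand): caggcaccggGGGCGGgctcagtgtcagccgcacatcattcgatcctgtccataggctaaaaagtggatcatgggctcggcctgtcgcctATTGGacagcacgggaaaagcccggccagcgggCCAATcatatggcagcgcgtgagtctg
Abca1 (chr4:53159896-53160045, minus strand): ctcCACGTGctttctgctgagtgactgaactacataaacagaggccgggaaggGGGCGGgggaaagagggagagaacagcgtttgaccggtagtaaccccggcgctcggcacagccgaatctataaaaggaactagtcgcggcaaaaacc
In these 150 bases Hmgcs1 had its sterol response element starting at -137 and a CCAAT box at -45, Mvk had 4 CCAAT boxes (at -120, -67, -50 and -14), and Mvd had 2 (at -60 and -27). Abca1 had no CCAAT box in its window; its E-box started at -147 and its GC box at -97.

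Library totals ran from 22282095 to 33577977 counts, with every rPTH library deeper than every control. Control 1 and control 3 each stood apart from the other libraries. Control 1 had a TMM factor (the scaling that edgeR derives from the bulk of genes) of 0.81 against 1.03 to 1.06 and lay alone on the first principal component, and control 3 lay alone on the second, with a count for 31346 genes against 25880 to 29229. Osteoblast and stromal marker genes summed to 1314 to 1476 CPM in the controls and to 1792 to 2951 CPM with rPTH, highest in rPTH 1. Of 24 such markers 18 were tested, and all 18 had a log2 fold change above 0 (median 0.61). For 9 the edgeR unadjusted p was under 0.05, where 1.98% of all genes tested were higher with rPTH at that level. For 11 all rPTH libraries lay above all controls, against 8.35% of all genes. Among them Runx2, the osteoblast lineage factor, had 346 to 520 counts in controls and 828 to 1121 with rPTH, Alpl 336 to 511 and 694 to 1040, and Col1a1 3197 to 4099 and 5515 to 9397. Bglap, Ibsp and Dmp1, genes of mature osteoblasts and osteocytes, had 0 to 5 counts per library. On the same list, Phex had 9 to 27 counts in controls and 40 to 54 with rPTH, and Sp7 7 to 13 and 24 to 33. The 15 mast cell markers, scaled by TMM, summed to 10398, 8406 and 8388 CPM in control 1, 2 and 3. In rPTH 1, 2 and 3 they summed to 6755, 8742 and 8289 CPM. In plain CPM, without TMM, the sums were 8414, 8686 and 8703 in controls and 6949, 9148 and 8803 with rPTH. The groups overlapped on both scales. Of the 14 mast cell markers tested, 4 had a log2 fold change above 0 and 10 below. In bulk RNA, fewer cells of a type and less RNA per cell cannot be told apart. Levels below are CPM, counts scaled to the library total, further scaled by TMM unless stated. A positive log2 fold change means a higher level with rPTH, and its error is the standard error (SE) from edgeR.

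Genes of all 4 role groups were detected in these MC/9 libraries. The libraries also held osteoblast and stromal transcripts, and which cells the lipid gene transcripts came from was not tested. On the scale of CPM per kilobase of exon, which allows genes to be compared, the highest level with rPTH was that of Acly, the enzyme that turns exported citrate into acetyl-CoA (61.2 ± 13.9 in controls and 66.4 ± 1.34 with rPTH, SD, n = 3 each). Next came the fatty acid synthase Fasn (58.1 ± 18.4 and 62.3 ± 6.56), the desaturase Scd2 (55.6 ± 15.3 and 58.8 ± 4.47) and the squalene epoxidase Sqle (58.3 ± 3.81 and 50.8 ± 4.3). In controls these 4 levels lay closer together than the SD of Acly, Fasn or Scd2. The related desaturase Scd1 had 12.9 ± 3.9 and 14.6 ± 1.05 CPM per kilobase. At the other end stood Tm7sf2 (2.59 ± 0.417 and 1.87 ± 0.246) and the sterol exporters Abcg1 (0.434 ± 0.0182 and 0.404 ± 0.0911) and Abca1 (0.0745 ± 0.0398 and 0.181 ± 0.0458). Every other gene of the set lay above both exporters on this scale.

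The comparison asked whether these genes differed between rPTH and control. No gene passed: with edgeR's quasi-likelihood test, adjusted over all genes tested, 0 of 34 had an adjusted p under 0.05, against 0 of 16696 genes (0%), and the 34 adjusted p-values ran from 0.619 to 0.965. An unadjusted p under 0.05 was reached by 2 of 34 (5.88%), against 7.87% of all genes tested. They were Fdps, lower with rPTH as were 5.89% of all genes at that level, and Abca1, higher as were 1.98%. The log2 fold change was above 0 for 13 and below 0 for 21, with a median of -0.06, against -0.09 over all genes tested. All 3 rPTH libraries lay above all 3 controls for 2 genes (5.88%, against 8.35% of all genes) and below them for 5 (14.7%, against 8.46%; 16.8% in either direction). DESeq2 and limma-voom also called 0 of the 34; at an unadjusted p under 0.05 they had 2 and 1. With DESeq2, 0.0209% of 38205 genes passed and 5.22% had an unadjusted p under 0.05. These 38205 are all genes given a p by DESeq2, without the count filter that all 34 passed, so the sets are unlike. With limma-voom, 0% of 16696 passed and 5.17% had an unadjusted p under 0.05.

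**Figure D1:**
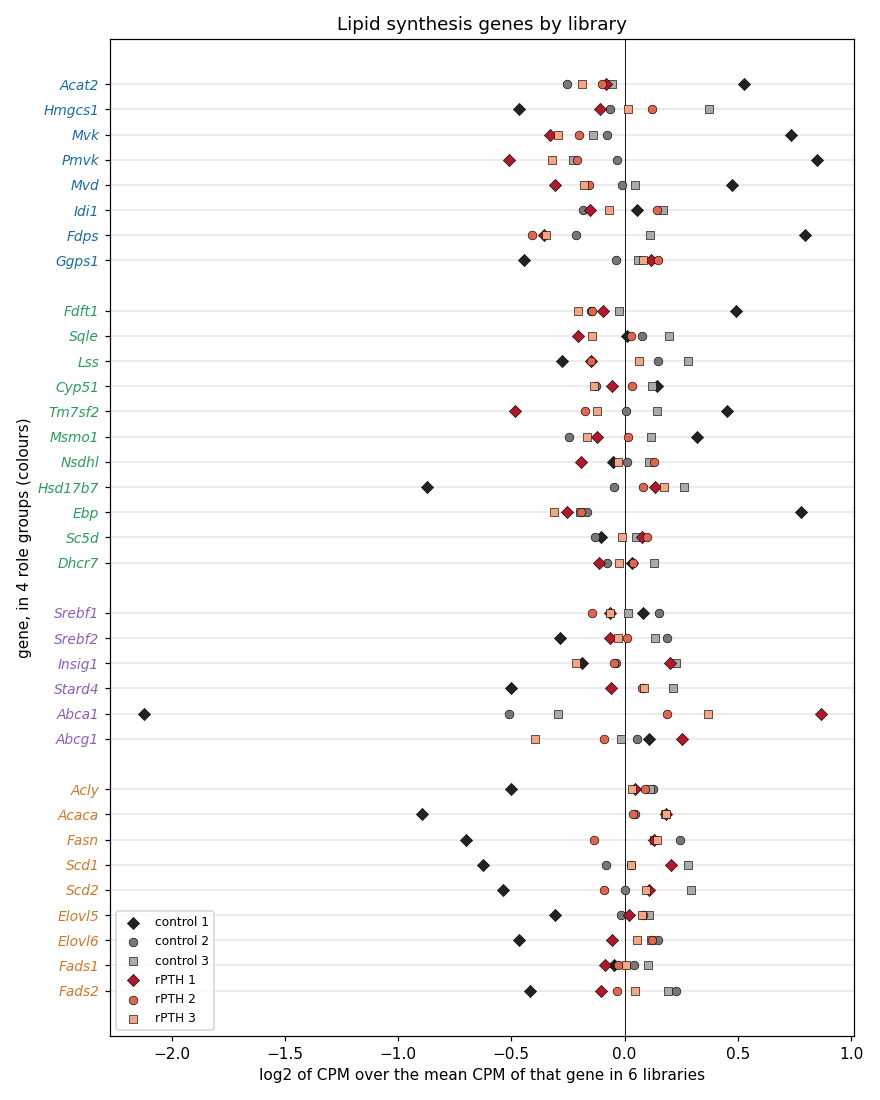
Level of each of the 34 genes in each library, as the log2 of its CPM over its mean in the 6 libraries (horizontal axis); rows are genes, coloured by role, and each point is 1 library. Control 1 (black diamonds) is the highest library for 10 genes, the lowest for 15 and often far from the rest.

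The controls were less alike than the rPTH libraries. The SD over controls exceeded the SD over rPTH libraries for 30 of 34 genes, and the median relative SD was 20.7% in controls and 5.7% with rPTH. Control 1 was the highest of the 6 libraries for 10 genes (Acat2, Mvk, Pmvk, Mvd, Fdps, Fdft1, Cyp51, Tm7sf2, Msmo1 and Ebp) and the lowest for 15, which include 8 of the 9 fatty acid genes. Its log2 ratio to the mean of controls 2 and 3 ran from -1.73 (Abca1) to 0.98 (Pmvk). The ratio tended to be lower in longer genes: the 10 genes had a median exon length of 3.44 kb and the 15 a median of 5.46 kb. Across the 34 genes Pearson's r with log2 exon length was -0.68 and Spearman's rho -0.61. Across 12272 tested protein-coding genes, r was -0.58 and rho -0.60. Genes of 1 library share its RNA and depth and are not independent replicates. Role groups and the genes given by library are described below also without control 1 or control 3 where that turns a direction or moves a value by over 1.5 times.

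**Figure D2:**
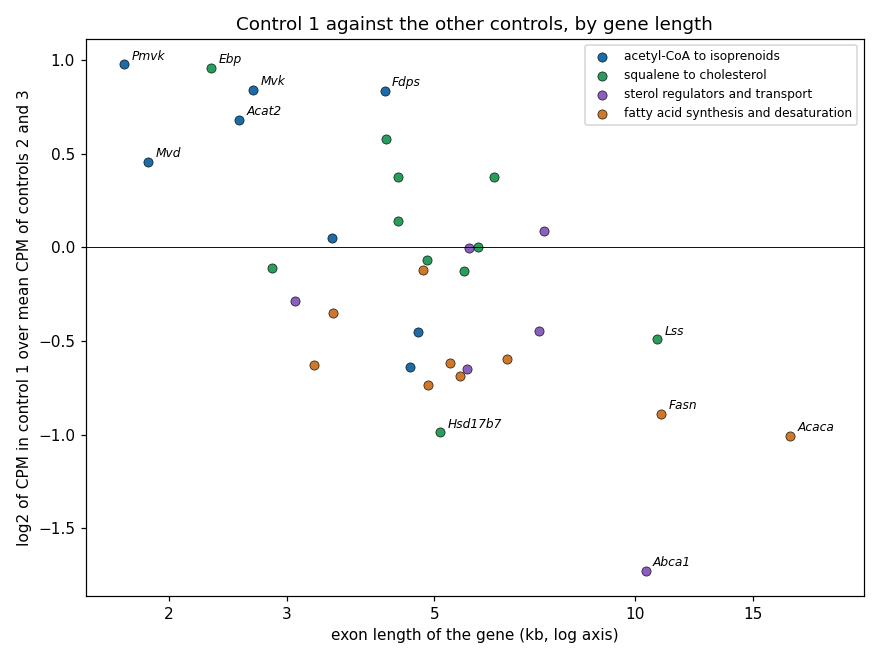
Log2 ratio of the level in control 1 to the mean of controls 2 and 3 (vertical axis) against exon length in kilobases (horizontal log axis), 1 point per gene, coloured by role. The points fall from Pmvk (1.71 kb, 0.98) to Acaca (17.1 kb, -1.01) with wide scatter: Fads2 (3.295 kb) lies at -0.63 and Msmo1 (6.14 kb) at 0.37.

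Genes leading from acetyl-CoA to isoprenoids were mostly lower with rPTH, 6 of 8, with a median log2 fold change of -0.32. The median was -0.17 without control 1 (6 of 8 below 0), -0.28 without control 3 (5 of 8) and -0.11 with the length and GC trend removed (7 of 8). None passed the test. Fdps, which makes farnesyl diphosphate, the branch point to sterols and protein prenylation, had 35.4, 17.6 and 22.1 CPM in control 1, 2 and 3 and 15.9, 15.4 and 16.1 CPM in rPTH 1, 2 and 3. Every rPTH library was below every control, and control 1 was far above the other 2 controls. This gave a log2 fold change of -0.66 ± 0.27 (SE; edgeR unadjusted p = 0.0438, adjusted p = 0.619). Without control 1 it was -0.34 ± 0.13 (edgeR unadjusted p = 0.0341, adjusted p = 0.4). With the length and GC trend removed it was -0.62.

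The mevalonate kinase Mvk had 51.7, 29.5 and 28.3 CPM in control 1, 2 and 3 and 24.8, 27.1 and 25.4 CPM in rPTH 1, 2 and 3. Control 1 was far above the rest, and the groups did not overlap. Its log2 fold change was -0.50 ± 0.26 (edgeR adjusted p = 0.628), and -0.18 ± 0.09 without control 1. Mvd, which forms isopentenyl diphosphate, had 48.9, 34.9 and 36.3 CPM in controls and 28.4, 31.6 and 31.1 CPM with rPTH. Here too the groups did not overlap, and control 1 was the highest. Mvd had a log2 fold change of -0.40 ± 0.18 (edgeR adjusted p = 0.619), -0.24 ± 0.09 without control 1 and -0.06 once each library's trend with gene length and GC content was removed, an alternative chosen after seeing the data.

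The phosphomevalonate kinase Pmvk had a log2 fold change of -0.62 ± 0.30, and -0.23 ± 0.14 without control 1. The thiolase Acat2, which starts the pathway, had -0.23 ± 0.23 and 0.02 in the same order. Hmgcs1, the synthase before the rate-limiting reductase step and the highest of this group per kilobase with rPTH (38.2 ± 3.05 CPM per kilobase, SD, n = 3), had 126, 166 and 225 CPM in controls and 162, 190 and 176 CPM with rPTH. Its controls spanned the whole range of the rPTH libraries, with a log2 fold change of 0.03 ± 0.24, -0.17 ± 0.15 without control 1 and 0.34 ± 0.24 without control 3. The isomerase Idi1 likewise overlapped between groups (-0.04 ± 0.17). Ggps1, which makes geranylgeranyl diphosphate for prenylation, went the other way, with 24.8, 32.8 and 35.1 CPM in controls and 36.6, 37.4 and 35.7 CPM with rPTH. Its groups did not overlap, and control 1 was the lowest. The log2 fold change was 0.24 ± 0.18 (edgeR adjusted p = 0.64), 0.09 without control 1 and 0.42 without control 3. With the length and GC trend removed it was 0.05.

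**Figure D3:**
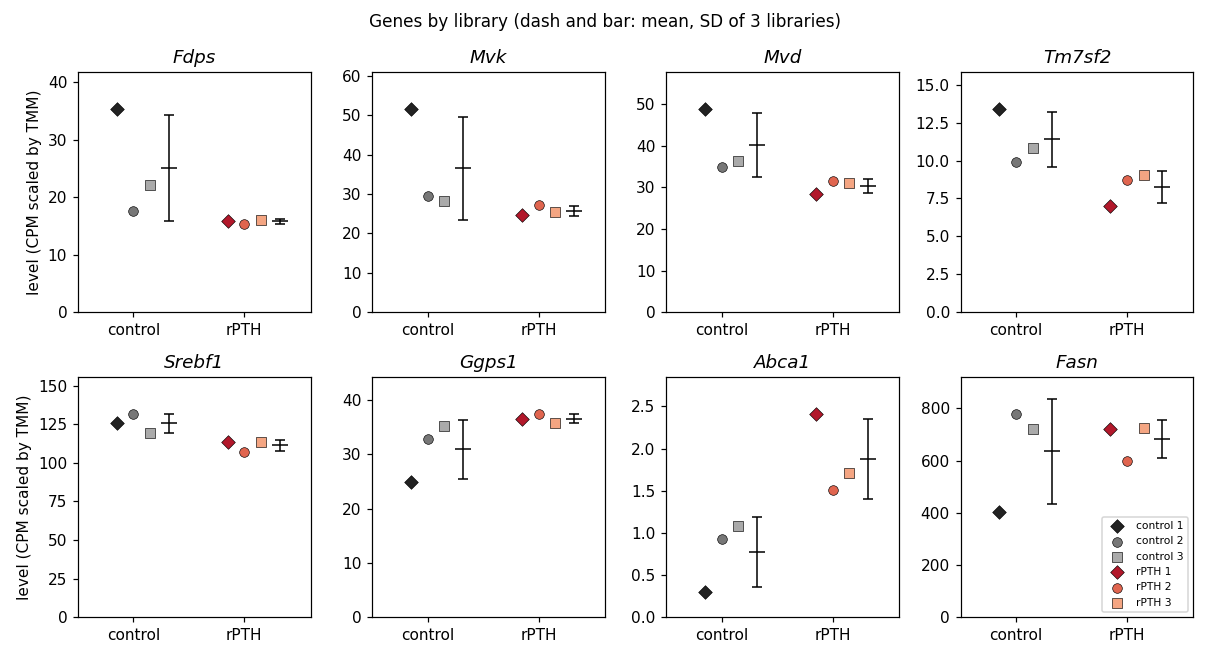
Levels in CPM scaled by TMM (vertical axes, from 0) of 8 genes in 3 control and 3 rPTH libraries; points are libraries, and the dash and bar beside them are the mean and SD. Fdps, Mvk, Mvd, Tm7sf2 and Srebf1 have all rPTH points below the controls, Ggps1 and Abca1 above, and Fasn overlaps.

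The 11 genes from squalene to cholesterol had 9 log2 fold changes below 0 and a median of -0.14, and none passed the test. Without control 1 the median was -0.07, with 9 of 11 below 0. Without control 3 the direction turned, with 6 of 11 above 0 and a median of 0.03. With the length and GC trend removed, 10 of 11 were below 0 and the median was -0.22. Sqle, the epoxidase and the highest of the group per kilobase, had 304, 319 and 346 CPM in control 1, 2 and 3 and 263, 308 and 274 CPM in rPTH 1, 2 and 3. Only rPTH 2 reached into the control range. Sqle had a log2 fold change of -0.20 ± 0.17 (edgeR adjusted p = 0.662), -0.25 ± 0.10 without control 1 (edgeR adjusted p = 0.4) and -0.06 without control 3. Tm7sf2, a sterol reductase, had 13.4, 9.87 and 10.9 CPM in controls and 7.01, 8.7 and 9.03 CPM with rPTH. All its rPTH libraries were below the controls, with a log2 fold change of -0.46 ± 0.21 (edgeR adjusted p = 0.619), and -0.34 ± 0.18 without control 1.

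The other 9 genes of this group overlapped between groups. The sterol isomerase Ebp had the same fold change as Tm7sf2 in the full set, -0.46 ± 0.28, but -0.08 without control 1. The level of Ebp was 111 CPM in control 1, against 57.9 and 56.6 CPM in controls 2 and 3. The squalene synthase Fdft1 had -0.28 ± 0.20 and -0.07 in the same order. The cyclase Lss moved the other way, from -0.14 ± 0.19 to -0.30 ± 0.10 without control 1. For Lss the value was -0.40 with the length and GC trend removed and 0.05 without control 3. The demethylases and reductases Cyp51, Msmo1, Nsdhl and Dhcr7 had values from -0.17 to -0.05. Above 0 stood Hsd17b7 (0.27 ± 0.28, and 0.0042 without control 1) and the desaturase Sc5d (0.11 ± 0.14).

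None of the sterol regulators and transporters passed the test, and 4 of 6 were below 0, with a median of -0.04. The median was -0.12 without control 1 and 0.13 without control 3, where 4 of 6 were above 0. Srebf1, which encodes the SREBP factor that mainly drives fatty acid genes, had 125, 132 and 120 CPM in control 1, 2 and 3 and 113, 107 and 113 CPM in rPTH 1, 2 and 3. All rPTH libraries were below the controls with TMM scaling, while the groups overlapped in plain CPM and with RLE size factors. Srebf1 had a log2 fold change of -0.18 ± 0.14 (edgeR adjusted p = 0.655), and -0.19 ± 0.08 without control 1 (edgeR unadjusted p = 0.0492, adjusted p = 0.4). Srebf2, the factor that mainly drives sterol genes, had 165, 229 and 220 CPM in controls and 192, 202 and 197 CPM with rPTH. Control 1 was below and the other 2 controls above all rPTH libraries. Its log2 fold change was therefore -0.05 ± 0.18 with control 1 and -0.20 ± 0.07 without it (edgeR unadjusted p = 0.0317, adjusted p = 0.4), while without control 3 it was 0.08. The SREBP-retaining protein Insig1 (-0.02 ± 0.19) and the sterol carrier Stard4 (0.07 ± 0.21) overlapped between groups. Without control 1 they had -0.12 and -0.13, and without control 3 they had 0.18 and 0.29.

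Abca1, the exporter that loads cholesterol onto apolipoprotein and a known LXR target, had the largest difference of the 34. It had 6, 24 and 25 counts in control 1, 2 and 3 and 76, 52 and 61 counts in rPTH 1, 2 and 3, or 0.304, 0.929 and 1.08 CPM and 2.41, 1.51 and 1.71 CPM. All rPTH libraries were above all controls, and control 1 alone was below the level of 0.36 CPM that the filter asks for. The log2 fold change was 1.26 ± 0.49 (edgeR unadjusted p = 0.0364, adjusted p = 0.619), and 0.89 ± 0.36 without control 1 (edgeR adjusted p = 0.4). It ran from 0.89 to 1.62 over the alternatives, never below 0, and no alternative brought the adjusted p under 0.223. The level followed the stromal marker sum within the rPTH group, rPTH 1 being the highest in both and rPTH 2 the lowest in both (2951, 1792 and 2033 CPM for the markers in rPTH 1, 2 and 3); their part in the result was not tested. Of the macrophage and adipocyte markers, C1qa (0 or 1 count per library) and Adipoq (1 to 5) were near 0, as were Marco, Plin1 and Lep, while other members of both lists were expressed. Lpl, the lipoprotein lipase, had 44.6, 27.7 and 30.0 CPM in controls and 70.2, 40.4 and 50.03 CPM with rPTH. Its groups overlapped, and its order within the rPTH group was that of Abca1. Lipe, with the smallest p of the adipocyte markers, went the other way. It had 28.8, 25.9 and 22.8 CPM in controls and 17.1, 17.5 and 19.3 CPM with rPTH (edgeR unadjusted p = 0.0155, adjusted p = 0.619). Fabp4 had 275 to 700 counts, Pparg 178 to 498, Cebpa 88 to 283 and Cd14 170 to 391. Over the lists, 3 of 5 tested adipocyte markers and 2 of 4 tested macrophage markers were above 0. The macrophage marker sum was 12.0 to 22.2 CPM in controls and 14.5 to 17.9 CPM with rPTH, and the adipocyte marker sum 76.8 to 129 CPM and 87.3 to 135 CPM.

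Abcg1, the exporter to lipoprotein particles and another LXR target, overlapped between groups in CPM; it had 65, 82 and 70 counts in controls and 115, 99 and 83 with rPTH, and a log2 fold change of -0.10 ± 0.27 (-0.04 without control 3). Of the 9 other LXR genes in the list, 8 were below 0, where 9766 of all 16696 tested genes were too. Without control 1, and likewise without control 3, 6 of 9 were below 0. The 1 above 0 was Rxra, the partner receptor of LXR, at 26.8 ± 1.51 (control) and 37.5 ± 10.0 CPM (rPTH; SD, 3 libraries each), named after its value was seen (edgeR adjusted p = 0.619).

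Genes of fatty acid synthesis and desaturation had 7 of 9 log2 fold changes above 0, with a median of 0.10, and the groups overlapped for all 9. Fasn, which builds palmitate, had 405, 780 and 722 CPM in control 1, 2 and 3 and 721, 600 and 727 CPM in rPTH 1, 2 and 3. Control 1 was the lowest library, and controls 2 and 3 lay within or above the rPTH range. Fasn had a log2 fold change of 0.10 ± 0.28 (edgeR adjusted p = 0.881), -0.15 without control 1 and 0.27 without control 3. The carboxylase Acaca, which commits acetyl-CoA to fatty acids and has the longest exons of the set (17.1 kb), had 66.5, 128 and 140 CPM in controls and 140, 127 and 140 CPM with rPTH. Its log2 fold change of 0.29 ± 0.28 was 0.01 without control 1 and 0.55 without control 3. The direction of this group turned with that library: without control 1 only 2 of 9 were above 0 and the median was -0.10, while without control 3 all 9 were above 0 and the median was 0.28.

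Acly (0.12 ± 0.22), Scd1 (0.18 ± 0.24), Scd2 (0.08 ± 0.24), and the elongases Elovl5 (0.12 ± 0.16) and Elovl6 (0.08 ± 0.21) each had control 1 as the lowest library. Without it their values in the same order were -0.07, -0.03, -0.13, 0.0017 and -0.10. The desaturases of polyunsaturated fatty acids, Fads1 (-0.07 ± 0.15) and Fads2 (-0.06 ± 0.21), were the 2 below 0. Fads2 had 102, 159 and 155 CPM in controls and 126, 133 and 140 CPM with rPTH, so that controls 2 and 3 were above all rPTH libraries and control 1 below them. Without control 1 its log2 fold change was -0.25 ± 0.08, with the smallest p of the 34 in that fit (edgeR unadjusted p = 0.0191, adjusted p = 0.4); it is named here after that value was seen. Without control 3 it was 0.10.

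**Figure D4:**
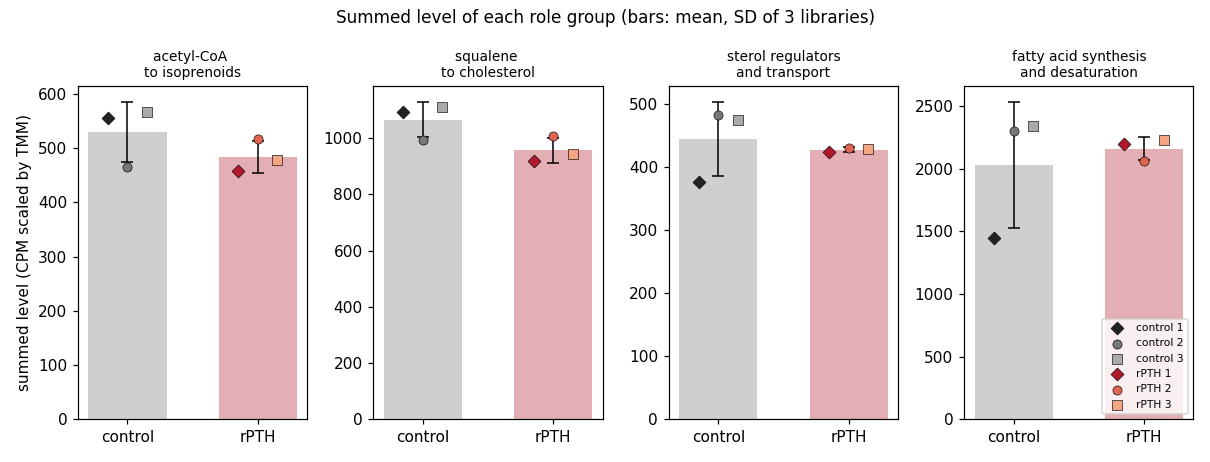
Summed level of each role group in CPM scaled by TMM (vertical axes, from 0) in control and rPTH libraries; bars are means, error bars the SD of 3 libraries and points single libraries. The groups overlap in all 4 panels, and control 1 is the lowest point of the fatty acid panel at 1451 CPM.

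Summed over each role, the groups overlapped throughout. The isoprenoid genes summed to 529.5 ± 55.3 CPM in the control group and 484 ± 29.5 CPM in the rPTH group (SD over 3 libraries). The genes from squalene on summed to 1066 ± 62.3 and 956 ± 44.7 CPM, and the regulators to 444 ± 58.6 and 427 ± 3.77 CPM. The fatty acid genes had 1451, 2298 and 2342 CPM in control 1, 2 and 3 and 2194, 2061 and 2229 CPM in rPTH 1, 2 and 3. All 34 genes together had 4069 ± 529 and 4028 ± 44.1 CPM. In plain CPM the isoprenoid means were equal to 1 decimal (506.4 and 506.4), and those of the genes from squalene on were 1021 ± 134 and 999.7 ± 53.4. There the order turned for the regulators (431 ± 110 and 447 ± 10.4) and for all 34 genes (3951 ± 996 and 4213 ± 111).

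Without control 1, 27 of 34 genes were below 0 (79.4%, against 56.6% of all genes in that fit), with a median of -0.10 against -0.04. An unadjusted p under 0.05 was reached by 8 of 34 (23.5%, against 12.4% of 17454 genes), 7 of them lower with rPTH (Fads2, Lss, Srebf2, Fdps, Mvd, Sqle and Srebf1; 7.95% of all genes were lower at that level) and Abca1 higher. The edgeR adjusted p of these 8 was 0.4 and none passed. Without control 3 instead, 22 of 34 genes were above 0, against 8775 of all 17250 genes in that fit. The median was 0.08 against 0.01 over all genes. There 2 of 34 had an unadjusted p under 0.05 (Pmvk lower and Abca1 higher), against 1638 of 17250. Without control 2, 19 of 34 were below 0, with a median of -0.06 against -0.13 over all genes. Of the fits that left out a library, only that without control 3 had a median of the 34 above 0. With only 2 controls left, each fit rests on fewer libraries than the one with all 6.

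**Figure D5:**
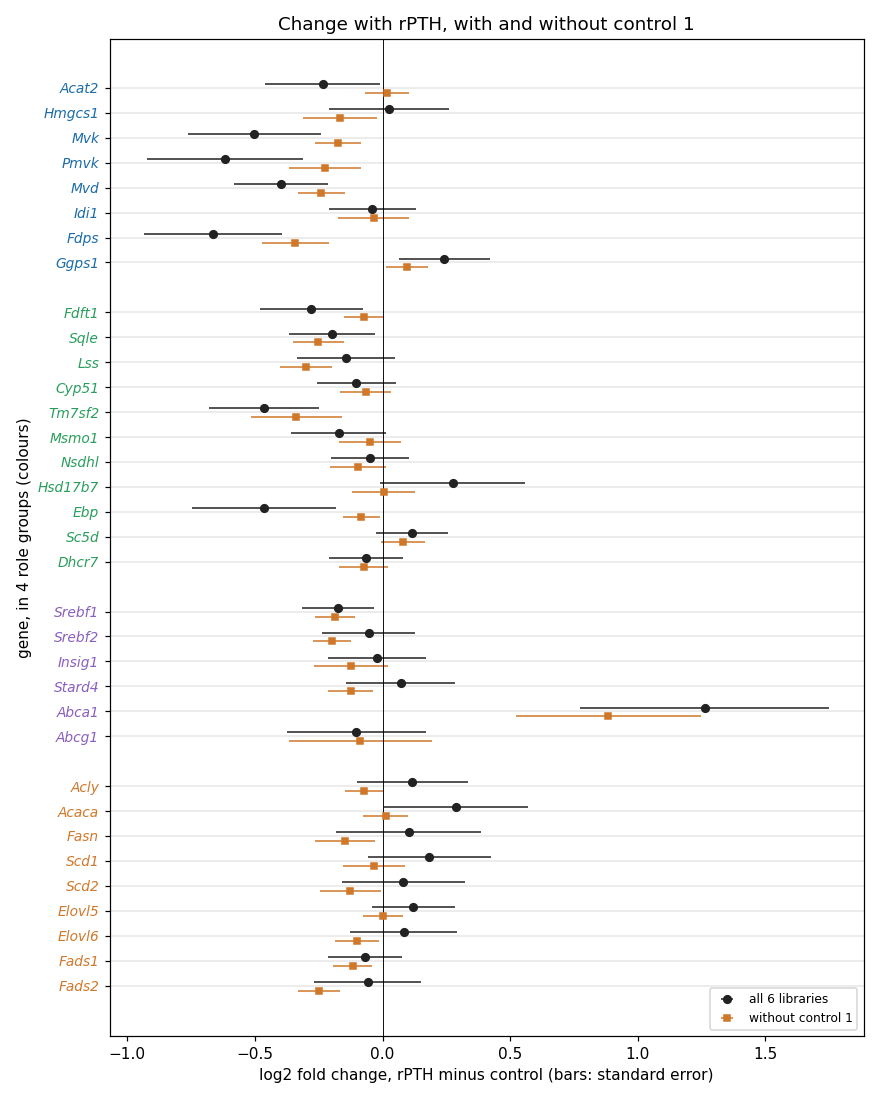
Log2 fold change of the 34 genes (horizontal axis; positive is higher with rPTH), with bars for the edgeR standard error, for all 6 libraries (black circles) and without control 1 (orange squares); gene names are coloured by role. Fatty acid genes lie mostly above 0 with control 1 and at or below 0 without it, while Abca1 lies above 0 in both (1.26 and 0.89).

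Other genes of these pathways came from lists of 72 genes, of which 66 were tested. None passed edgeR's test, with adjusted p from 0.619 to 0.992, and 31 were above 0 and 35 below (median -0.04). The lists were SREBP processing (8 of 9 above 0, median 0.15), other sterol and isoprenoid genes (5 of 14, -0.12), cholesterol storage and traffic (6 of 9, 0.09), LXR genes (1 of 9, -0.12) and other fatty acid genes (11 of 25, -0.07). Without control 1 these were 8 of 9 (0.11), 8 of 14 (0.05, the direction turned), 4 of 9 (-0.0034, turned), 3 of 9 (-0.06) and 9 of 25 (-0.03). Without control 3 the other fatty acid genes turned, with 13 of 25 above 0 and a median of 0.09. With the length and GC trend removed, SREBP processing had 5 of 9 above 0 (median 0.04). Cholesterol storage and traffic then had 3 of 9 (-0.08, turned), and the other lists kept a median below 0. All rPTH libraries lay above the controls for 8 of 66 and below them for 5, against 8.35% and 8.46% of all genes. Among SREBP processing genes rPTH lay above for 4: Mbtps1, Mbtps2, Rnf145 and Erlin1, named after their values were seen. Mbtps2, a protease that frees SREBP, had 13.9, 37.3 and 40.6 CPM in controls and 47.5, 43 and 41.5 CPM with rPTH, again with control 1 far below. The 1 gene of the 66 with an unadjusted p under 0.05, against 7.87% of all genes, was Acsl1, which activates long-chain fatty acids. Without control 1 there were 10 of 66, against 12.4%. Acsl1 had 17.3, 21.2 and 22 CPM in controls and 33.8, 27 and 25.8 CPM with rPTH, a log2 fold change of 0.52 ± 0.19 (edgeR unadjusted p = 0.0273, adjusted p = 0.619). Like Abca1, it was highest in rPTH 1, the library with the most stromal marker transcripts; their part was not tested.

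In the authors' deposited table none of the 34 genes had an adjusted p under 0.05, against 11 of 15559 genes. The values of the 34 ran from 0.215 to 0.989. The authors' deposited table gave an unadjusted p under 0.05 to 2, Abca1 (log2 fold change 0.95, p = 0.00986) and Fdps (-0.51, p = 0.0446).

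In GENCODE M21 on GRCm38, Abca1 spans chromosome 4 from 53030787 to 53159895, Fdps chromosome 3 from 89093588 to 89101959, Mvk chromosome 5 from 114444269 to 114460591, Mvd chromosome 8 from 122433601 to 122443422, Tm7sf2 chromosome 19 from 6062821 to 6068373, Ggps1 chromosome 13 from 14050659 to 14063488 and Srebf1 chromosome 11 from 60199089 to 60222581. Some counts are uncertain because exons overlap, and whether reads were counted by strand is not stated. Fdps shares 26.7% of its exon bases with Gm43738 on the same strand, Fdft1 18.3% with Ctsb on the other strand, Hmgcs1 12.1% with the antisense gene Gm48342 and Tm7sf2 12.1% with Vps51. Near copies, defined as at least 95% identity over at least 300 bases of transcript, were found for 6 genes (Acaca, Acat2, Elovl6, Fdft1, Ggps1 and Idi1). The pseudogene Gm13502 matches Idi1 at 100% over 684 bases and had 179 to 1036 counts, against 2191 to 4078 for Idi1. Acat3 matches Acat2 at 97.7% over 1477 bases and had 255 to 642 counts.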

How the data were processed

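RNA of 6 libraries was read from the table of whole-number counts per gene that the authors deposited, which has no normalization. The submitters' processing notes name DESeq2 1.12.4, R 3.3.0, STAR 2.5.2b, featureCounts, Subread 1.5.0p3 and Trimmomatic 0.36, and the builds mm9 and GRCm38.p5; the role of each is not stated. The log2 fold changes with their errors and the p-values of the authors' deposited comparison table are quoted as theirs. Groups follow the labels.

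Genes passing filterByExpr (minimum count 10) were tested with edgeR 4.0.16 (robust quasi-likelihood, TMM, Benjamini-Hochberg over all genes, threshold 0.05) in R 4.3.3. In a simulation of rPTH against control over 16446 genes, 83 of 100 genes changed 4-fold and 12 of 100 changed 2-fold were recovered. There were 6 false calls. The changed genes all had a mean above 100 counts, so the recovery does not cover Abca1 (6 to 76 counts). All simulated libraries shared the same base levels, so the length trend of control 1 was not built in. DESeq2 1.42.0 (all genes, no count filter), limma 3.58.1 (voom), RLE factors, no filter, a replicate block and leaving out each library were alternatives; 3 were added after seeing the data (protein-coding genes only, and removal of length and GC trends per library, without and with the block). No 2 libraries were duplicates (chi-square per degree of freedom 12.0 to 261). The genes and lists were chosen with earlier results of these data known. Genes given per library had an unadjusted p under 0.05, groups that did not overlap, or the highest level of their role. Acaca, Fads2, Abcg1 (as counts), the controls of Ebp and the marker Lpl were given as well, outside that rule. Ufd1, 1 of the 72 listed pathway genes, did not match a symbol. A count of 0 allows 3 counts, up to 0.135 CPM, for counting error only.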

Additional observations from a re-analysis of the deposited data

How the results depend on the processing

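No alternative called any of the 34 genes: over 14 alternatives their adjusted p ran from 0.2 to 1. Over all genes DESeq2, with its filter set for 0.05 and no count filter before it, called 8, against 0 in edgeR and in the other alternatives. The log2 fold change kept its sign in every alternative for 14 genes, 4 above 0 (Ggps1, Hsd17b7, Abca1 and Elovl5) and 10 below, and changed sign in at least 1 for 20. The median of the 34 was 0.018 with DESeq2, 0.059 without the count filter and -0.098 to 0.083 without single libraries. That of the genes after squalene was -0.031 without the filter and -0.19 to 0.032 without single libraries, both highest without control 3. For the genes after squalene it was lowest with the length and GC trend removed, at -0.22, and -0.21 with the replicate block as well. The cause was not tested.

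Single genes turned sign as follows. With DESeq2: Idi1 0.044, Nsdhl 0.030, Dhcr7 0.018, Srebf2 0.018, Insig1 0.054, Fads1 0.011 and Fads2 0.010. With RLE factors: Idi1 0.021, Nsdhl 0.0075 and Insig1 0.030. Without the filter: Idi1 0.089, Cyp51 0.028, Nsdhl 0.073, Dhcr7 0.062, Srebf2 0.055, Insig1 0.091, Abcg1 0.020, Fads1 0.054 and Fads2 0.045. With the length and GC trend removed: Hmgcs1 -0.089, Sc5d -0.036, Insig1 0.024, Stard4 -0.074, Acaca -0.033, Fasn -0.021, Elovl6 -0.099 and Fads2 0.033. With that removal and the replicate block: Hmgcs1 -0.064, Sc5d -0.034, Insig1 0.045, Stard4 -0.064, Acaca -0.032, Fasn -0.010, Elovl6 -0.098 and Fads2 0.11.

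Without single libraries the range was -0.28 to 0.043 for Abcg1, -0.39 to 0.017 for Acat2, -0.072 to 0.28 for Acly, -0.19 to 0.032 for Cyp51, -0.12 to 0.082 for Dhcr7, -0.10 to 0.24 for Elovl6, -0.12 to 0.057 for Fads1, -0.25 to 0.10 for Fads2, -0.15 to 0.28 for Fasn, -0.17 to 0.34 for Hmgcs1, -0.14 to 0.14 for Idi1, -0.14 to 0.18 for Insig1, -0.30 to 0.052 for Lss, -0.13 to 0.083 for Nsdhl, -0.034 to 0.49 for Scd1, -0.13 to 0.36 for Scd2, -0.20 to 0.079 for Srebf2 and -0.13 to 0.29 for Stard4.

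Replicate numbers were not shown to pair the samples. The deviations of same-numbered libraries correlated at -0.13, -0.32 and 0.14, and those of differently numbered libraries at -0.27 to 0.35. With 3 libraries per group, and deviations taken from the group mean, these values cannot decide whether samples were paired. With the replicate block 0 genes passed over all and 0 of the 34. An unadjusted p under 0.05 was reached by 0 of the 34, against 525 of 16696 genes, and the median of the 34 was -0.05. Depth limits Abca1 most, with 6 to 76 counts per library.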
